A study of Mus musculus and Rattus norvegicus with 18 samples.

Results

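The WNT ligands Wnt3, Wnt4, Wnt5a, Wnt5b and Wnt9a, the R-spondins Rspo1 and Rspo3, the feedback gene Axin2 and the antagonists Sfrp1 and Dkk3 were followed over 3 treatments in 2 kinds of kidney cell. These 10 genes were chosen by symbol, with earlier results of these data in view, and each of the 10 occurs once in both count tables, among 22322 mouse and 22050 rat genes. Mouse primary tubular epithelial cells (TECs) and NRK49F, an established line of rat kidney fibroblasts, each gave 3 control libraries, 3 with TGF-β1 and 3 with TGF-β1 and narciclasine, an alkaloid of daffodil bulbs that acts on the ribosome. All cells were first kept without serum for 6 h. Controls received medium alone, the TGF-β group received 5 ng/ml TGF-β1 for 24 h, and the third group received 20 nM narciclasine from 2 h ahead of the same TGF-β1. The design holds no group with narciclasine alone, and cell kind cannot be told apart from species. NRK49F is 1 line, and no source used here says if each TEC replicate was another animal. The p-values below measure the spread between these libraries.

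WNT proteins are lipid-bearing secreted ligands that bind frizzled receptors together with LRP or ROR co-receptors. In the canonical branch, binding stops the destruction complex, beta-catenin enters the nucleus and acts with TCF and LEF factors, and Axin2 is among the genes it switches on. R-spondins bind LGR receptors and clear the ligases that remove frizzled receptors, which raises the response to a WNT ligand, whereas SFRP proteins bind the ligands and DKK proteins mostly bind the co-receptors. In the kidney the pathway builds the nephron during development and is known to be active again in injured tubules and in fibrosis.

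A level below is CPM, the gene's counts scaled to the library total and TMM factor, and a gene is called changed at an adjusted p under 0.05 over all genes tested in that cell kind. After the filter on low counts, 9 of the 10 genes were tested in TECs, without Rspo3, and 7 in NRK49F, without Wnt3, Wnt5b and Sfrp1. When libraries were scaled by total counts instead of TMM, the median log2 change of all genes with TGF-β moved from -0.0049 to -0.13 in TECs and from -0.05 to -0.24 in NRK49F, and the share of called genes that were higher from 49.4% to 34.8% and from 47.0% to 35.0%. Against control, the share with both agents moved from 51.5% to 36.9% in TECs and from 49.97% to 40.0% in NRK49F. Libraries held 16652016 to 25192716 counts in TECs and 14695732 to 18463855 in NRK49F. In NRK49F the libraries numbered 2 stood apart. Pairs of replicates that include one had a chi-square of 7.58 to 19.9 per gene, where counting error alone gives about 1, against 2.39 to 3.34 for the other pairs and 1.84 to 3.70 in TECs. Fitted NRK49F changes are therefore also given without the 3 libraries numbered 2. Those libraries were left out for their spread in these same data, so SE and p-values without them may be too small.

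The labelled cell kinds were checked against marker genes. In TECs, Cdh1 stood at 816, 1117 and 1113 CPM in the control, TGF-β and narciclasine groups. The kidney tubule gene Cdh16 stood at 706, 521 and 442 CPM, while the phosphate transporter gene Slc34a1 was at 0.249 CPM or less. In NRK49F, Cdh1 and Epcam were under 0.5 CPM and Col1a1 was between 7599 and 23562 CPM on average, but Thy1 and Dcn were also under 0.5 CPM and Krt8 reached 1208 CPM in controls. These values move with treatment. The summed level of the 8 fibroblast markers in TECs was 68.1 to 68.8 CPM in controls, 242 to 266 with TGF-β and 105 to 117 with narciclasine, most of it Col1a1, with Dcn and Lum under 0.3 CPM. The 8 macrophage markers summed to 30.0 to 31.3, 47.6 to 51.9 and 20.1 to 21.1 CPM. Lyz2 stood at 7.90, 21.9 and 3.08 CPM and Cd68 at 7.17, 5.88 and 3.03 CPM on average. Csf1r, in contrast, was higher at each step, at 9.62, 11.2 and 12.6 CPM. The 9 markers listed as proximal summed to 1268 to 1303, 796 to 837 and 841 to 870 CPM, most of it Cdh16. Lrp2 stood at 105, 61.1 and 129.8 CPM. The 5 epithelial markers summed to 4820 to 4881, 5980 to 6140 and 6745 to 6853 CPM, most of it Krt8 and Krt18. Krt19 stood at 291, 183 and 212 CPM and Epcam at 292, 505 and 352 CPM on average. The 7 distal markers summed to 81.0, 49.2 and 37.8 CPM on average and the 5 endothelial markers to 102, 117 and 111 CPM. In NRK49F the 8 fibroblast markers summed to 10087 to 11733, 35904 to 37671 and 17342 to 17863 CPM. Most of it was Col1a1 and Col3a1, which were higher with TGF-β, as were Postn and Lum. Pdgfra went the other way, at 354, 181 and 100.1 CPM, and Pdgfrb went from 122 to 78.2 CPM with TGF-β. The epithelial markers, nearly all Krt8, summed there to 1225, 708 and 599 CPM on average. The proximal markers summed to 49.3, 97.1 and 45.7 CPM, with Ggt1 at 3.94, 77.0 and 39.2 CPM and Lrp2 at 0.044 CPM or less. Aqp1 was most of the proximal sum in controls, at 43.4 ± 27.5 CPM (SD, n = 3), and stood at 10.4 and 1.36 CPM in the other groups. Macrophage markers summed to 9.30 CPM or less. The part of these shifts in the results below was not tested, and in bulk RNA fewer cells of a type cannot be told apart from less RNA per cell.

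Promoters of 4 of the 6 genes called higher with TGF-β in TECs are shown first, because these genes moved together there. For Wnt5a and Dkk3, also called higher, no promoter sequence was at hand. RefSeq promoter sequence (mouse build GRCm38.p6, 250 bases before to 50 after the start, 5′ to 3′) was at hand for 6 of the 10 genes, among them Wnt3 at chr11:103773925-103774224, Wnt9a at chr11:59306680-59306979, Rspo1 at chr4:124986180-124986479 and Axin2 at chr11:108920099-108920398, all on the plus strand. Capitals mark the core of the TCF and LEF site, CTTTGA or CTTTGT, and none of the 4 held the SMAD element CAGACA. Both strands were searched.
Wnt3: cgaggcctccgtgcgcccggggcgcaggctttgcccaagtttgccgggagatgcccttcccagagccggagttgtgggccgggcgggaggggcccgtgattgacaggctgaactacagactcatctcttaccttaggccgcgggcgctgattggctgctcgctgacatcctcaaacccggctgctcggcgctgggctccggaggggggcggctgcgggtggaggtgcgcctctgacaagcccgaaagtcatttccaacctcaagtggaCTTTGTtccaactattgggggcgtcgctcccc
Wnt9a: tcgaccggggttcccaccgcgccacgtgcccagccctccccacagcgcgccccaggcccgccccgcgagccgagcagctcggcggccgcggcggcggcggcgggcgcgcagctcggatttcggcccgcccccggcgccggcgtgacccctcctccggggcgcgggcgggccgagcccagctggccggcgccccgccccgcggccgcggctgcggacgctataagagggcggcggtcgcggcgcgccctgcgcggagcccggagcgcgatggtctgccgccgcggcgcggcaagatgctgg
Rspo1: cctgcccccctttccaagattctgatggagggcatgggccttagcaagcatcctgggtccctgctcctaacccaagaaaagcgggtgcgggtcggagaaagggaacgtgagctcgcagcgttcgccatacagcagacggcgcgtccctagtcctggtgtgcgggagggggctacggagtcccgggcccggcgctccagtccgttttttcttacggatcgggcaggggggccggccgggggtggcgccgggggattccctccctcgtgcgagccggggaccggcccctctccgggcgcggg
Axin2: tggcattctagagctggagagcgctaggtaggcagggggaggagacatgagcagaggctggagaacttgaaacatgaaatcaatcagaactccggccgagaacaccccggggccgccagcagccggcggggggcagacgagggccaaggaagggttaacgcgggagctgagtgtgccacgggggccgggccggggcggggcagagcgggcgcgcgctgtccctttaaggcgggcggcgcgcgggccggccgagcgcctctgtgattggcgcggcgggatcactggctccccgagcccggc
Of these 4, the Wnt3 promoter held 1 match, beginning 18 bases downstream of the start site, and the others held none. Among the promoters not shown, 1 of Wnt5b, a gene not called in TECs, held CTTTGA, beginning 71 bases upstream of its start site. Of all 32851 promoters of this length, 31.2% held a TCF and LEF core and 21.0% the SMAD element, so a match or its absence in 1 window is a description only. The GC content was 65.7% for Wnt3, 83.3% for Wnt9a, 69.0% for Rspo1 and 70.0% for Axin2, against a median of 52.7% over all promoters.

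In TECs, TGF-β was accompanied by higher levels of 3 WNT ligands, of Rspo1, of Axin2 and of Dkk3, and by lower levels of Wnt4 and Sfrp1. Of the 9 genes tested, 6 were called higher and 2 lower, where 34.1% and 34.9% of all tested genes were called higher and lower. Since the genes were chosen with these comparisons known, nothing is read from that count. The median log2 change of the 9 was 0.92, against -0.0049 over all tested genes.

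Wnt9a, a ligand of the canonical branch (ENSMUSG00000000126, GRCm38 chr11:59306928-59333552), stood at 20.9, 19.2 and 21.5 CPM in control TECs and at 67.1, 70.1 and 70.6 CPM with TGF-β. The groups were far apart and each was tight. The level was 3.39-fold higher (log2 1.76 ± 0.0525 SE). With both agents Wnt9a reached 86.2, 85.6 and 90.4 CPM, above every library with TGF-β alone, a further 1.26-fold (log2 0.34 ± 0.0437).

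Wnt5a, the best known ligand of the branches that bypass beta-catenin (ENSMUSG00000021994, chr14:28504750-28527448), followed the same order. Its libraries held 18.8, 18.3 and 17.4 CPM in control TECs, 32.9, 35.8 and 34.5 CPM with TGF-β, and 36.6, 38.8 and 39.7 CPM with added narciclasine. The 3 groups did not overlap. The rise with TGF-β was 1.89-fold (log2 0.92 ± 0.0623), and the further step with narciclasine was small (log2 0.16 ± 0.0566, adjusted p = 0.0182). That step lost its call with DESeq2 and in 3 of the fits that left out 1 library, with adjusted p up to 0.144. Reads of Wnt5a and of its antisense neighbour Gm2670 may be mixed, since it is not given whether counting used strand.

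Wnt3, a canonical ligand (ENSMUSG00000000125, chr11:103774150-103817957), was close to silent in control TECs, with 0, 0 and 1 reads. TGF-β libraries held 24, 11 and 5 reads, and those with narciclasine held 29, 6 and 8. Per library total scaled by the TMM factor, this is a ratio of 43.1 over control, for which counting error alone (95%) allows 7.30 to 1743. Replicates varied widely. Between the narciclasine and TGF-β groups the log2 difference was 0.11 ± 0.508 and was not called (adjusted p = 0.869), and its sign depended on single libraries, at -0.34 without TGF-β replicate 3 and -0.79 without narciclasine replicate 1.

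Wnt4, the ligand that turns kidney mesenchyme into epithelium during nephron formation (ENSMUSG00000036856, chr4:137277489-137299726), moved the other way. It stood at 4.04, 2.93 and 3.39 CPM in control TECs and at 2.06, 1.63 and 1.54 CPM with TGF-β. The groups did not overlap, and the level was 1.95-fold lower (log2 -0.96 ± 0.205). With narciclasine Wnt4 was at 2.19, 2.11 and 2.75 CPM, between the other groups, and the log2 difference from TGF-β of 0.42 ± 0.22 was not called (adjusted p = 0.109). Its difference from control, log2 -0.54 ± 0.196, was called but lost the call without control replicate 1 and without narciclasine replicate 2 (adjusted p = 0.0883 and 0.0502).

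Wnt5b, the close relative of Wnt5a (ENSMUSG00000030170, chr6:119432531-119544347), was not called in any comparison of TECs. It stood at 2.33, 2.56 and 2.77 CPM in controls, at 2.83, 1.57 and 1.68 CPM with TGF-β and at 2.10, 2.22 and 1.82 CPM with narciclasine. TGF-β replicate 1 lay above the controls and the other two TGF-β libraries lay below them. The log2 change with TGF-β was -0.32 ± 0.219 (adjusted p = 0.20), and without TGF-β replicate 1 it was -0.65 and passed (adjusted p = 0.0203). The gene overlaps Fbxl14 on the opposite strand.

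**Figure D1:**
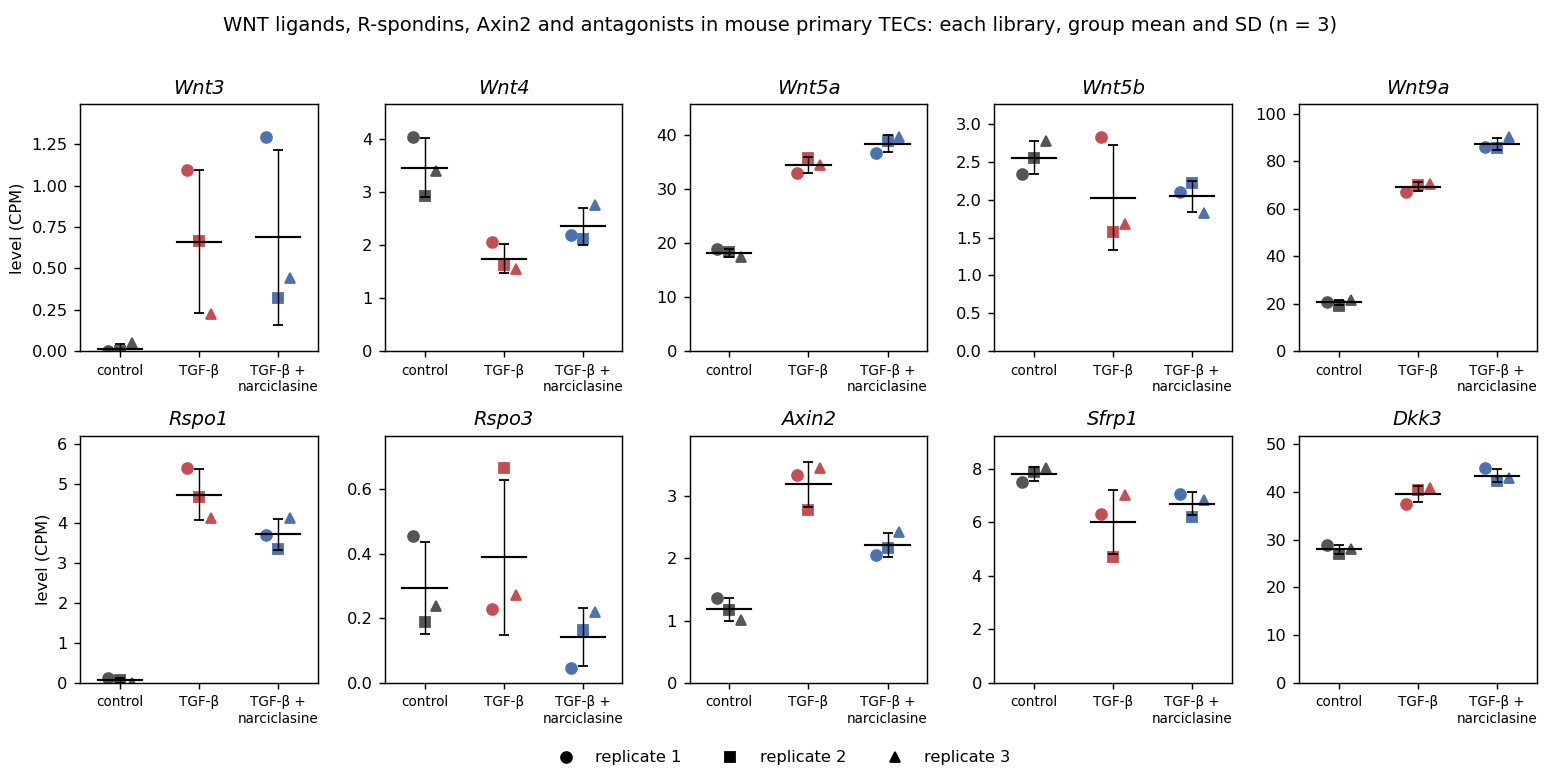
Level in CPM (vertical axis, from 0) of the 10 genes in each mouse TEC library, by treatment (horizontal axis). Marker shape gives the replicate, the bar the mean and the whisker the SD of 3 libraries; Rspo1 goes from 0.114 CPM or less in controls to 4.13 to 5.39 CPM with TGF-β, and Wnt9a is highest with TGF-β and narciclasine.

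Rspo1, which binds LGR receptors and amplifies WNT signals (ENSMUSG00000028871, chr4:124986430-125009099), had the largest fitted change of the 10 genes with TGF-β in TECs among those with more than 3 control reads. Control libraries held 2, 2 and 0 reads, or at most 0.114 CPM, and TGF-β libraries 118, 77 and 91 reads, or 5.39, 4.66 and 4.13 CPM. The gene went from near silence to a low but clear level. The fitted change was 70.1-fold (log2 6.13 ± 0.364), a figure that rests on 4 control reads. It ranged from log2 5.61 to 6.62 over the alternative fits. DESeq2 gave this change an SE of 0.747, so the error of 0.364 may be too small. With narciclasine Rspo1 stood at 3.71, 3.35 and 4.13 CPM, a log2 difference from TGF-β of -0.34 ± 0.174 that was not called (adjusted p = 0.0964). It remained 55.3-fold above control. An antisense gene, Gm12930, overlaps Rspo1.

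Rspo3, the other R-spondin (ENSMUSG00000019880, chr10:29452416-29535867), was too scarce in TECs to test. Its reads were 8, 5 and 5 in controls, 5, 11 and 6 with TGF-β and 1, 3 and 4 with narciclasine. No difference was detectable between the control and TGF-β groups at this depth.

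Axin2, the scaffold of the destruction complex that beta-catenin itself induces (ENSMUSG00000000142, chr11:108920349-108950783), stood at 1.37, 1.16 and 1.00 CPM in control TECs and at 3.33, 2.78 and 3.45 CPM with TGF-β. The groups did not overlap and the level was 2.74-fold higher (log2 1.45 ± 0.22). With narciclasine it was at 2.06, 2.16 and 2.42 CPM, below every TGF-β library and above every control. The log2 difference from TGF-β was -0.54 ± 0.20 (adjusted p = 0.0223). The call was lost with DESeq2 (adjusted p = 0.0605) and without TGF-β replicate 1, TGF-β replicate 3 or narciclasine replicate 1, with adjusted p up to 0.0873. Relative to control, Axin2 with both agents was 1.88-fold higher. Gm11670 lies antisense to Axin2.

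Sfrp1, an antagonist that holds WNT ligands through a frizzled-like domain (ENSMUSG00000031548, chr8:23411502-23449632), stood at 7.51, 7.89 and 8.03 CPM in control TECs, 6.30, 4.72 and 7.04 CPM with TGF-β and 7.06, 6.21 and 6.83 CPM with narciclasine. The control libraries were the highest and the TGF-β libraries the most spread. The fall with TGF-β, log2 -0.36 ± 0.125, passed (adjusted p = 0.0107), but not without TGF-β replicate 2 (log2 -0.23, adjusted p = 0.106). The narciclasine group differed from TGF-β by log2 0.14 ± 0.129, which was not called.

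Dkk3, a divergent member of the Dickkopf family of secreted antagonists (ENSMUSG00000030772, chr7:112116017-112159057), rose with TGF-β in TECs. Its level was 28.8, 26.9 and 28.1 CPM in controls, 37.5, 40.4 and 40.7 CPM with TGF-β and 45.0, 42.4 and 42.8 CPM with narciclasine. The 3 groups did not overlap. The first step was 1.42-fold (log2 0.50 ± 0.0558). The second, log2 0.14 ± 0.0531, was called (adjusted p = 0.0291), but not with DESeq2, not without the filter and not without TGF-β replicate 1 or narciclasine replicate 1, where adjusted p ran up to 0.237.

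The narciclasine comparison in TECs thus held 3 genes called higher (Wnt9a, Wnt5a, Dkk3) and 1 called lower (Axin2) among 9 tested, where 26.8% and 25.5% of all tested genes were called higher and lower. DESeq2 called 1 of the 9, and over all 13244 tested genes 3053 higher and 3061 lower, against 3550 and 3371 in the main fit. The median log2 difference was 0.14, against 0.0019 over all tested genes, which again only describes chosen genes. Both comparisons use the same TGF-β libraries. Against control, the group with both agents had 6 genes called higher and 1 lower, beside 32.4% and 30.6% of all tested genes. The 3 ligands, Rspo1, Axin2 and Dkk3 were the higher ones and Wnt4 the lower one.

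Levels of different genes can be set side by side only per length. Divided by the exon length of the GENCODE vM21 annotation (GRCm38), control TECs held 8.32 ± 0.285 CPM per kb of Dkk3 (SD, n = 3), 6.17 ± 0.359 of Wnt9a, 2.32 ± 0.0963 of Wnt5a and 1.79 ± 0.0617 of Sfrp1. Libraries of these 4 genes did not overlap with each other. Wnt5b at 0.962 ± 0.0829 and Wnt4 at 0.824 ± 0.133 CPM per kb overlapped, Axin2 stood at 0.214 ± 0.0329 and Rspo3, Rspo1 and Wnt3 at 0.0952 or less. With TGF-β the order opened with Wnt9a at 20.8 ± 0.582, Dkk3 at 11.8 ± 0.519, Wnt5a at 4.40 ± 0.183 and Rspo1 at 2.44 ± 0.326 CPM per kb. Rspo1 moved from rank 9 of the 10 genes in controls to rank 4. With narciclasine the same 4 led, Wnt9a at 26.3 ± 0.789 CPM per kb. No rat annotation was used here, so NRK49F levels are not compared between genes.

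NRK49F cells showed another picture, with lower Rspo1, Rspo3, Wnt5a, Wnt4 and Dkk3 after TGF-β and higher Axin2. Of the 7 genes tested, 1 was called higher and 5 lower, where 33.7% and 38.0% of all tested genes were. The median log2 change was -0.53, against -0.05 over all tested genes, which again only describes chosen genes. Every call held without the libraries numbered 2.

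Wnt5a stood at 40.9, 49.8 and 35.4 CPM in control NRK49F cells and at 17.1, 17.2 and 14.5 CPM with TGF-β, the direction opposite to that in TECs. The groups did not overlap. The level was 2.59-fold lower (log2 -1.37 ± 0.119, and -1.28 ± 0.104 without the libraries numbered 2). With narciclasine Wnt5a was at 14.1, 13.1 and 13.0 CPM, slightly under every TGF-β library. That difference, log2 -0.28 ± 0.128, was not called (adjusted p = 0.0715), although it passed in a fit of these 2 groups alone (adjusted p = 0.0207). Without the libraries numbered 2 it was -0.22 ± 0.118 and again not called (adjusted p = 0.103).

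Wnt4 stood at 39.9, 42.5 and 43.3 CPM in controls, at 34.0, 38.4 and 29.4 CPM with TGF-β and at 50.3, 61.4 and 49.7 CPM with narciclasine. The narciclasine libraries were the highest and the TGF-β libraries the lowest, with no overlap. TGF-β lowered it modestly (log2 -0.30 ± 0.103, adjusted p = 0.0164), a call lost without TGF-β replicate 3 (adjusted p = 0.0958) and kept without the libraries numbered 2 (log2 -0.40 ± 0.0819). Narciclasine raised it 1.59-fold over TGF-β (log2 0.67 ± 0.102, and 0.66 ± 0.0805 without the libraries numbered 2), to 1.29-fold above control (log2 0.36 ± 0.0998, and 0.27 ± 0.0765 without the libraries numbered 2).

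Wnt9a was scarce in NRK49F, at 1.14, 2.09 and 0.978 CPM in controls, 1.25, 1.23 and 1.34 CPM with TGF-β and 0.930, 0.706 and 0.662 CPM with narciclasine. Control replicate 2 lay well above the other libraries. The log2 change with TGF-β was -0.14 ± 0.347 and not called (adjusted p = 0.74), and it became 0.28 ± 0.45 without the libraries numbered 2. Narciclasine against TGF-β gave -0.72 ± 0.372, not called (adjusted p = 0.105), and -0.68 ± 0.47 without the libraries numbered 2. Narciclasine against control was called by a small margin (log2 -0.86 ± 0.363, adjusted p = 0.0487), lost the call in 14 of 17 alternative fits, and was not called without the libraries numbered 2 (-0.40 ± 0.476, adjusted p = 0.467).

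The remaining ligands were near or below detection in the fibroblasts. Wnt3 had 1 read in all 9 libraries together, in narciclasine replicate 2. Wnt5b had 2, 3 and 3 reads in controls, 3, 10 and 5 with TGF-β and 3, 3 and 0 with narciclasine, and was not tested.

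**Figure D2:**
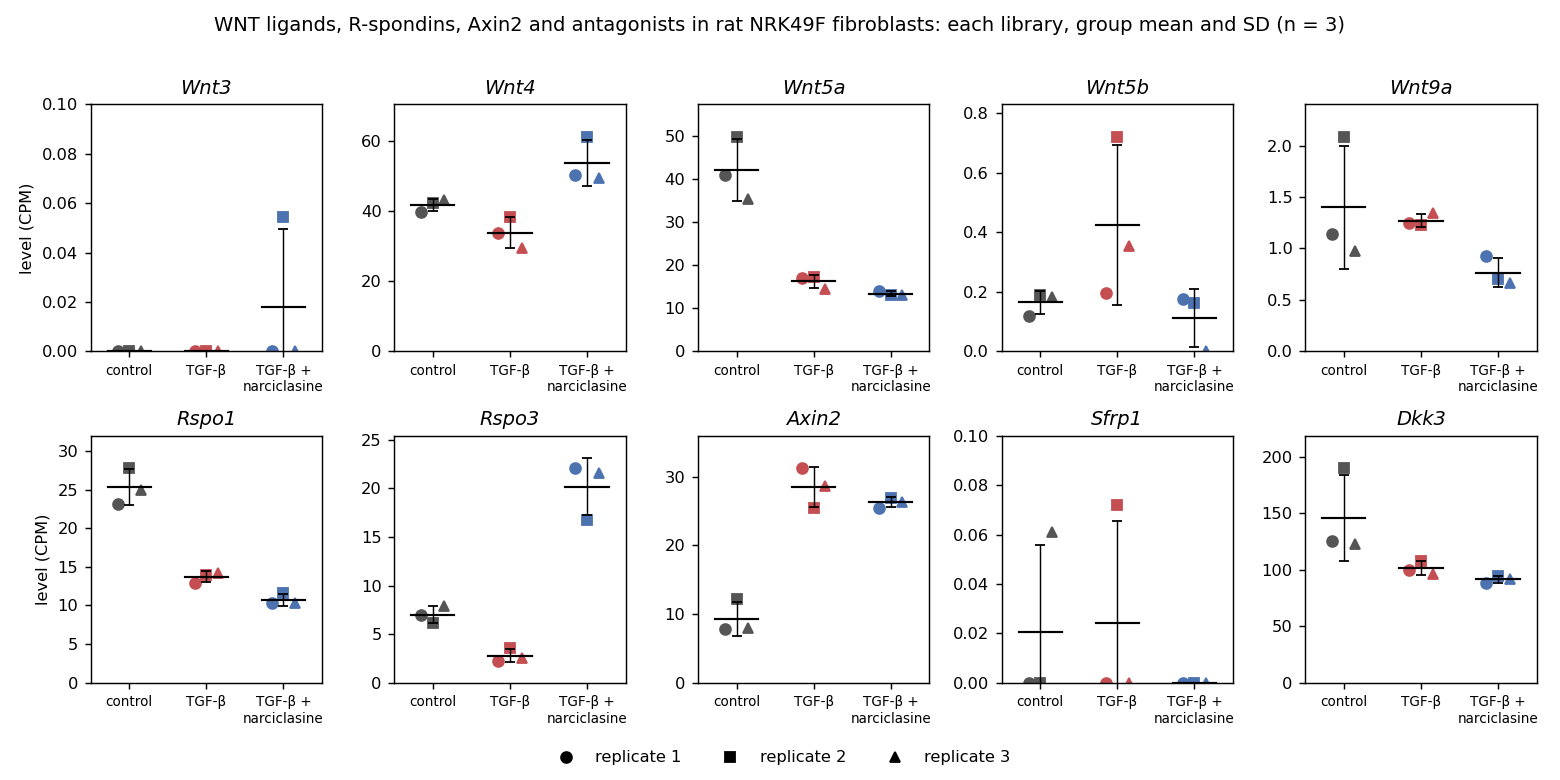
Level in CPM (vertical axis, from 0) of the same 10 genes in each rat NRK49F library, by treatment (horizontal axis), with the mean and SD of 3 libraries. Squares are the libraries numbered 2, which stood apart; Rspo3 is lowest with TGF-β, at 2.23 to 3.53 CPM, and highest with narciclasine, at 16.8 to 22.1 CPM.

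Rspo3 had the largest response to narciclasine among the 7 genes tested in NRK49F. Its level was 6.96, 6.14 and 7.94 CPM in controls, 2.23, 3.53 and 2.54 CPM with TGF-β and 22.1, 16.8 and 21.6 CPM with narciclasine. The 3 groups were well separated, with the narciclasine libraries above the controls as well. TGF-β lowered it 2.54-fold (log2 -1.35 ± 0.193), and narciclasine raised it 7.29-fold over TGF-β (log2 2.87 ± 0.18). Relative to control the group with both agents was 2.87-fold higher (log2 1.52 ± 0.157). Without the libraries numbered 2 these log2 values were -1.65 ± 0.194, 3.20 ± 0.173 and 1.55 ± 0.142.

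Rspo1 fell in the fibroblasts where it rose in the tubular cells. It stood at 23.1, 27.8 and 25.0 CPM in controls, 12.9, 14.0 and 14.3 CPM with TGF-β and 10.3, 11.6 and 10.3 CPM with narciclasine. Each group lay below the one before it with no overlap. The fall with TGF-β was 1.84-fold (log2 -0.88 ± 0.102, and -0.83 ± 0.115 without the libraries numbered 2). Narciclasine lowered it by a further log2 -0.35 ± 0.109 (adjusted p = 0.0116, and -0.39 ± 0.128 without the libraries numbered 2). The R-spondins of NRK49F therefore parted under narciclasine, Rspo3 being higher and Rspo1 lower than with TGF-β alone.

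Axin2 stood at 7.86, 12.2 and 7.94 CPM in control NRK49F cells, with replicate 2 high, and at 31.3, 25.5 and 28.7 CPM with TGF-β. The groups did not overlap and the rise was 3.06-fold (log2 1.62 ± 0.143, and 1.92 ± 0.114 without the libraries numbered 2). With narciclasine it was at 25.5, 26.9 and 26.4 CPM, overlapping the TGF-β libraries. The log2 difference of -0.12 ± 0.13 was not called (adjusted p = 0.451), nor was the -0.20 ± 0.0963 found without the libraries numbered 2.

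Dkk3 stood at 125, 189.7 and 123 CPM in controls, 100.1, 108 and 96.0 CPM with TGF-β and 88.6, 94.0 and 91.3 CPM with narciclasine. Control replicate 2 was far above the others. The fall with TGF-β was 1.44-fold (log2 -0.53 ± 0.159), and -0.34 ± 0.0531 without the libraries numbered 2. The step with narciclasine, log2 -0.15 ± 0.16, was not called (adjusted p = 0.445). It passed in a fit of these 2 groups alone and without control replicate 2 (adjusted p = 0.0103 and 0.0179), and was -0.12 ± 0.0548 without the libraries numbered 2, not called (adjusted p = 0.0542). Sfrp1 had 2 reads in the 9 libraries and was not tested.

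Narciclasine against TGF-β in NRK49F therefore held 2 genes called higher (Rspo3, Wnt4) and 1 called lower (Rspo1) among 7, beside 31.6% and 31.1% of all tested genes. The count was 5 in a fit of these 2 groups alone and 5 without control replicate 2, the added genes being Wnt5a and Dkk3, both lower. Over all genes, the fit of the 2 groups called 3701 higher and 3858 lower of 11193. Without control replicate 2 these were 3888 and 3831 of 11533, and in the main fit 3614 and 3564 of 11444. Relative to control, 3 genes were called higher (Rspo3, Wnt4, Axin2) and 4 lower (Rspo1, Wnt5a, Dkk3, Wnt9a), where 33.4% of all tested genes were called in each direction. Without the libraries numbered 2 the lower genes were 3, Wnt9a having lost its call, where 3964 of all 11485 tested genes were lower. These comparisons again share libraries.

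**Figure D3:**
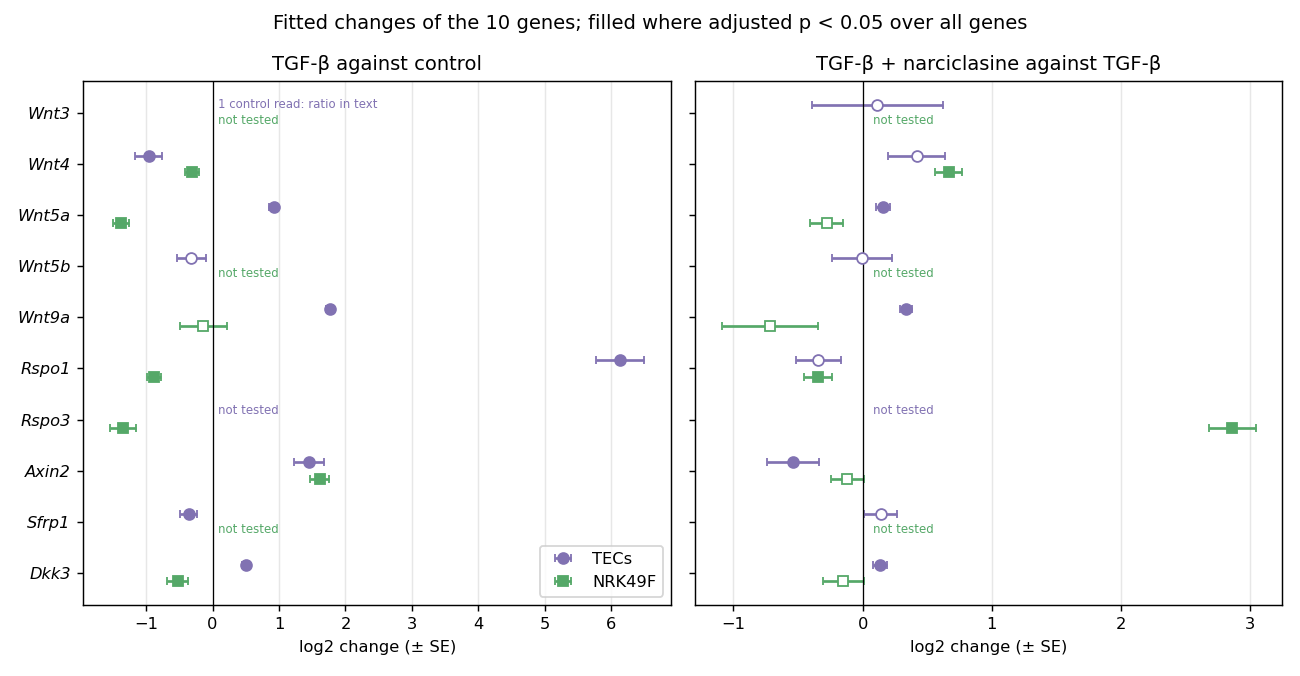
Fitted log2 change with its SE (horizontal axis) of each gene with TGF-β against control (left) and with TGF-β and narciclasine against TGF-β (right), circles for TECs and squares for NRK49F, filled at an adjusted p under 0.05. Axin2 lies at 1.45 in TECs and 1.62 in NRK49F on the left, while Rspo1, Wnt5a and Dkk3 lie on opposite sides of 0, and Rspo3 in NRK49F stands out on the right at 2.87.

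TECs and NRK49F were set against each other in 1 fit of all 18 libraries, over genes with the same symbol in both tables. Of the 6 genes tested in both kinds, 5 differed in their response to TGF-β, where 61.5% of all 12135 genes did. Axin2 was the exception. Its response was log2 1.45 in TECs and 1.62 in NRK49F, a difference of 0.19 (SE 0.273, 95% interval -0.34 to 0.73, adjusted p = 0.586). Without the NRK49F libraries numbered 2 that difference was 0.51 and again not called (adjusted p = 0.0715). A p above the threshold does not show that the cells respond alike.

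Rspo1 differed most, its response in NRK49F being lower by a log2 difference of -6.96 ± 0.353. That SE rests on the same few control reads in TECs and may also be too small. Wnt5a followed at -2.26 ± 0.135, then Wnt9a at -1.86 ± 0.265 and Dkk3 at -0.997 ± 0.197, all lower in NRK49F. Wnt4 fell less in NRK49F, by a difference of 0.68 ± 0.224. Without the NRK49F libraries numbered 2 the differences were -6.90 for Rspo1, -2.15 for Wnt5a, -1.43 for Wnt9a, -0.80 for Dkk3 and 0.60 for Wnt4, and all 5 were called.

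In the response to narciclasine, 2 of the 6 genes differed, where 46.9% of all genes did. The difference, NRK49F minus TECs, was -0.50 for Wnt5a and -1.12 for Wnt9a, each called also without the libraries numbered 2. Rspo1 at -0.07 (95% interval -0.45 to 0.32), Wnt4 at 0.19 (-0.29 to 0.67) and Axin2 at 0.36 (-0.08 to 0.81) were not called. Dkk3 at -0.35 was not called (adjusted p = 0.169), but was without the libraries numbered 2 (-0.33, adjusted p = 0.000157). The second p-value may be too small, since those libraries were left out for their spread. Rspo3 could not be compared, because it was not tested in TECs.

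The rest of the pathway was counted over 91 further genes in 8 lists. In TECs 68 of them were tested, and 33 rose and 24 fell with TGF-β, beside 34.1% and 34.9% of all tested genes. In NRK49F 53 were tested, with 24 up and 23 down, beside 33.7% and 38.0% of all tested genes. With narciclasine against TGF-β, 19 rose and 21 fell in TECs, beside 26.8% and 25.5%, and 17 rose and 19 fell in NRK49F, beside 31.6% and 31.1%. These shares over all tested genes are also the background of the list counts that follow, and nothing is called particular to a list. The median log2 change was 0.11 and 0.00 in TECs and 0.12 and -0.05 in NRK49F for the 2 comparisons. NRK49F without its libraries numbered 2 is called the reduced set in the following.

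Among the other ligands of TECs, 5 of 8 tested rose with TGF-β and 2 fell, beside 34.1% and 34.9% of all tested genes. Wnt10b, a canonical ligand, went from 1.59, 1.62 and 1.86 CPM to 15.6, 15.8 and 16.5 CPM (log2 3.24 ± 0.128), and was lower again with narciclasine (log2 -0.58 ± 0.0942). Wnt11, which acts through the branches that bypass beta-catenin, rose by log2 3.72 ± 0.211 and rose further with narciclasine (0.47 ± 0.127). Wnt1, the first ligand described in mammals, reached 1.05 ± 0.163 CPM from 0.0691 ± 0.0759 (SD, n = 3). Wnt7b, an epithelial ligand, held 269, 349 and 330 CPM on average in the control, TGF-β and narciclasine groups of TECs, and its change with TGF-β was log2 0.38 ± 0.0292. In NRK49F, where 3 other ligands were tested, Wnt7b was scarce but rose by log2 2.21 ± 0.501 (2.81 in the reduced set), from 0.24, 0.57 and 0.122 CPM to 1.31, 1.73 and 1.34 CPM, a difference between cell kinds of 1.87 ± 0.357. Wnt2, a canonical ligand of mesenchymal cells, had 1 control read and 201 with TGF-β, a ratio of 227 for which counting error alone (95%) allows 40.2 to 8999, and was lower with narciclasine (log2 -1.06 ± 0.264, and -1.11 in the reduced set). Wnt10b fell there by log2 -1.26 ± 0.22 (-1.34 in the reduced set), opposite to TECs, a difference between cell kinds of -4.46 ± 0.237.

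Ligand export and the R-spondin axis also moved. Wls, which carries WNT proteins to the cell surface, rose in TECs with TGF-β (log2 0.59 ± 0.0282) and fell with added narciclasine (-0.36 ± 0.0281), whereas in NRK49F it fell (-0.36 ± 0.0492, and -0.37 in the reduced set) and then rose (0.62 ± 0.0492, and 0.61 in the reduced set). Porcn, the enzyme that attaches the lipid, fell in TECs with narciclasine (-0.61 ± 0.148). Lgr6, an R-spondin receptor, went from 2.16, 2.37 and 3.44 CPM in control TECs to 31.3, 32.3 and 30.1 CPM with TGF-β and 21.9, 23.3 and 24.4 CPM with narciclasine. The 3 groups did not overlap, and the rise was 11.7-fold (log2 3.55 ± 0.104). Lgr4, the receptor of broader expression, fell in both cell kinds with TGF-β, by log2 -0.54 ± 0.0576 in TECs and -0.70 ± 0.0667 in NRK49F (-0.81 in the reduced set). Rnf43, one of the ligases that R-spondins clear, fell in TECs (log2 -0.61 ± 0.142). Of this list, 1 of 4 tested rose and 3 fell in TECs, and Lgr4 alone was tested in NRK49F.

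Receptors moved in both directions, with 5 up and 7 down of 14 tested in TECs and 5 up and 5 down of 14 in NRK49F after TGF-β, beside 34.1% and 34.9% of all tested genes in TECs and 33.7% and 38.0% in NRK49F. Ror1, a co-receptor of Wnt5a, fell in both, from 17.9 ± 0.66 to 10.3 ± 0.796 CPM in TECs and from 35.7 ± 2.96 to 8.04 ± 1.58 CPM in NRK49F (SD, n = 3), a log2 change of -2.15 there and -2.22 in the reduced set. It was higher again with narciclasine in both, by log2 0.89 ± 0.0834 in TECs and 0.59 ± 0.14 in NRK49F (0.65 in the reduced set). Fzd1 fell in TECs (log2 -0.89 ± 0.0584) and rose in NRK49F (0.85 ± 0.102, and 1.01 in the reduced set), a difference between cell kinds of 1.77 ± 0.143. The pseudokinase Ptk7 rose in TECs (0.74 ± 0.0337) and was not called in NRK49F (0.04 ± 0.113, adjusted p = 0.785). Lrp5, the canonical co-receptor, and Fzd7 fell in NRK49F (-0.90 ± 0.0562 and -0.99 ± 0.0965, and -0.85 and -1.12 in the reduced set).

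Other antagonists were called higher in 2 and lower in 2 of 5 tested in TECs and of 4 tested in NRK49F. Sfrp4, a relative of Sfrp1, rose in NRK49F from 18.4, 26.1 and 18.4 CPM to 85.0, 102 and 86.0 CPM and was at 43.6, 46.6 and 36.4 CPM with narciclasine. Those groups were fully apart (log2 2.12 ± 0.146 and -1.10 ± 0.137, and 2.21 and -1.08 in the reduced set). Kremen1, a receptor for DKK proteins, rose there as well (1.93 ± 0.0933, and 1.86 in the reduced set) and fell with narciclasine (-0.87 ± 0.0871, and -0.95 in the reduced set). Dkk2 in TECs rose by 0.87 ± 0.152 and fell by 0.82 (SE 0.154) on the log2 scale.

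**Figure D4:**
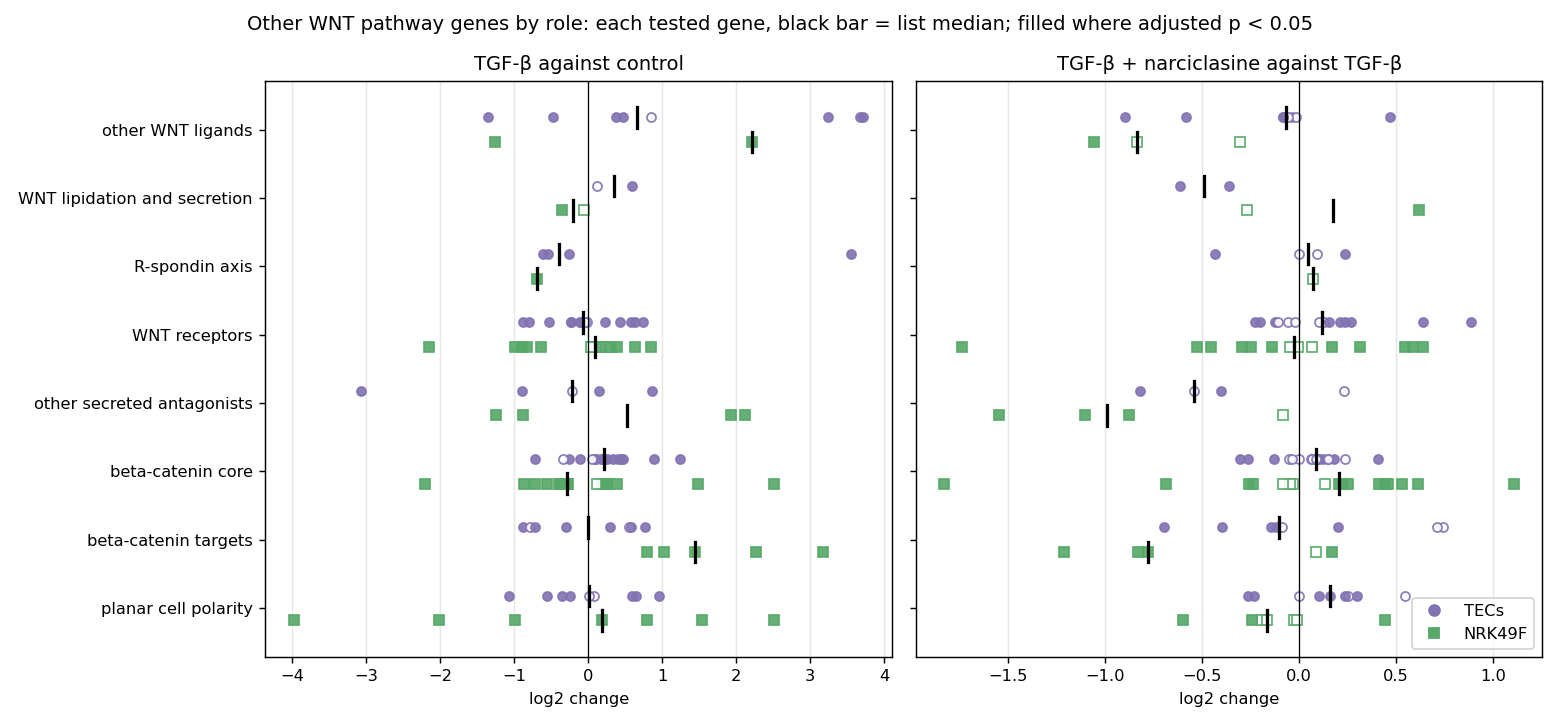
Fitted log2 change (horizontal axis) of each tested gene of the 8 further WNT lists (rows), circles for TECs and squares for NRK49F, filled at an adjusted p under 0.05, with the list median as a black bar. Wnt2 (left, NRK49F) and Sostdc1 (right, TECs), with 3 or fewer reads in a group, count in the median but are not drawn; the 5 beta-catenin targets of NRK49F all lie above 0 with TGF-β.

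Inside the cell, 13 of 18 genes of the beta-catenin core rose in TECs with TGF-β and 3 fell, beside 34.1% and 34.9% of all tested genes. In NRK49F 6 of 17 rose and 10 fell, beside 33.7% and 38.0%. Ctnnb1, which encodes beta-catenin, rose in TECs from 639 ± 0.384 to 885 ± 20.8 CPM (SD, n = 3) and fell in NRK49F (log2 -0.36 ± 0.0544, and -0.44 in the reduced set), a difference between cell kinds of -0.80 ± 0.0578. The partner factors Tcf7 and Lef1 rose in NRK49F by log2 2.51 ± 0.196 and 1.48 ± 0.146 (2.59 and 1.69 in the reduced set), while Tcf7l2 changed by -2.21 ± 0.106 (-2.11 in the reduced set). Narciclasine lowered Tcf7 from 9.70, 11.0 and 12.4 CPM to 2.96, 2.77 and 3.58 CPM (log2 -1.83 ± 0.184, and -1.75 in the reduced set).

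Of the target genes of beta-catenin other than Axin2, 3 rose and 3 fell among 8 tested in TECs, beside 34.1% and 34.9% of all tested genes. All 5 tested in NRK49F rose with TGF-β, beside 33.7% of all tested genes. Nkd1, a feedback inhibitor, stood there at 1.68, 3.48 and 2.08 CPM in controls and 24.7, 22.0 and 18.4 CPM with TGF-β (log2 3.17 ± 0.224, and 3.51 in the reduced set). It was lower with narciclasine at 14.2, 13.5 and 10.1 CPM (log2 -0.78 ± 0.183, and -0.81 in the reduced set). Myc rose by 2.27 ± 0.116 and Fosl1 by 1.44 ± 0.0863 on the log2 scale (2.15 and 1.37 in the reduced set). Ccnd1, which drives entry into S phase, fell in TECs (log2 -0.89 ± 0.0222) and rose in NRK49F (1.02 ± 0.0905, and 1.16 in the reduced set), a difference between cell kinds of 1.94 ± 0.105. With narciclasine, 1 of these 5 targets rose and 3 fell in NRK49F, beside 31.6% and 31.1% of all tested genes. Without the libraries numbered 2 the counts were 2 and 3, beside 3776 and 3710 of all 11485 tested genes.

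Planar polarity genes, which serve the branches without beta-catenin, were all called in NRK49F after TGF-β, 4 up and 3 down of 7 tested, beside 33.7% and 38.0% of all tested genes. Prickle1 rose from 38.3 ± 5.5 to 219 ± 5.03 CPM (SD, n = 3), a log2 change of 2.51 ± 0.0804 (2.65 in the reduced set), while Prickle2 changed by -2.02 ± 0.152 (-2.03 in the reduced set) and Celsr2 by -3.98 ± 0.36 (-3.80 in the reduced set). In TECs 3 rose and 4 fell of 9, with Vangl2 at log2 0.95 ± 0.0705 and Daam1 at 0.64 ± 0.0331. Over the 8 lists, 33 of the 50 genes tested in both cell kinds differed between them in the response to TGF-β and 27 of the 50 in the response to narciclasine, beside 61.5% and 46.9% of all 12135 genes. The differences between cell kinds given above for Wnt7b, Wnt10b, Fzd1, Ctnnb1 and Ccnd1 were also called with the reduced set, at 2.49, -4.53, 1.94, -0.86 and 2.09.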

How the data were processed

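RNA was measured by poly(A) RNA-seq in 18 libraries, 3 in each of 6 groups. The values are raw read counts per gene, deposited by the authors as 1 table for each cell kind; featureCounts, DESeq2 and the aligner HISAT2 2.1.0 are listed, per the submitters' processing notes, with mm10 as build for all libraries. A rat build, an annotation and the use of strand in counting were not given in the sources used here.

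Counts were fitted with edgeR 4.0.16 (R 4.3.3; TMM, filterByExpr, robust quasi-likelihood test, Benjamini-Hochberg adjustment over all tested genes, 9 libraries of a cell kind in 1 fit). Cell kinds were compared in a fit of 18 libraries over 15927 matched symbols. Errors of log2 values are SE, taken as the absolute log2 change over the square root of the test's F value. For genes with few reads in a group this can understate the error. Ratios of counts of 1 carry exact 95% intervals, which cover counting error only. The fits were tested on simulated data. Alternatives were other scalings, filters, DESeq2 1.42.0, only the groups compared, a replicate block and leaving out libraries.

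The members, the 8 lists and the markers were chosen with earlier results of these data known. All 10 members were named, and per list, cell kind and comparison up to 3 called genes with the largest log2 change and at least 1 CPM, whose values in the other cell kind or comparison could then be given.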

Additional observations from a re-analysis of the deposited data

Results flagged for a closer look

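These results were picked out because the response of a gene differed between the cell kinds in a test of the difference itself (edgeR's quasi-likelihood test, Benjamini-Hochberg adjustment over 12135 genes), where 61.5% of genes differed for TGF-β and 46.9% for narciclasine. For TGF-β against control, the log2 response in NRK49F minus that in TECs was -6.96 for Rspo1, -2.26 for Wnt5a, -1.86 for Wnt9a, -0.997 for Dkk3 and 0.68 for Wnt4. For narciclasine with TGF-β against TGF-β it was -1.12 for Wnt9a and -0.50 for Wnt5a. Rspo1 rested on 4 control reads in TECs, and Wnt9a in NRK49F on levels near 1 CPM. Cell kind and species cannot be told apart in these values.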

How the results depend on the processing

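Of 2363 values of single genes under an alternative, 2262 kept their direction and their side of the threshold, 75 lost the call, 11 gained it and 15 changed sign. Members called for narciclasine against TGF-β in TECs were 4, but 1 with DESeq2. They were 1 to 4 when 1 library was left out (1 without TGF-β replicate 1, 2 without narciclasine replicate 1). Over all genes the main fit called 3550 higher and 3371 lower of 13244, and DESeq2 3053 and 3061. The counts were 3105 and 3191 of 13370 without TGF-β replicate 1, and 3153 and 3208 of 13396 without narciclasine replicate 1. In NRK49F the members called were 3, but 5 in a fit of the 2 groups alone. They were 3 to 5 when 1 library was left out (5 without control replicate 2). The counts over all genes in NRK49F are given above. Signs changed for values that were not called. Wnt5b with narciclasine in TECs was 0.025 with total counts, 0.0030 with the replicate block and -0.15 to 0.32 without 1 library; Wnt3 was -0.79 to 0.75 without 1 library. Wnt9a with TGF-β in NRK49F was -0.34 to 0.26 without 1 library and 0.28 without all numbered 2. The difference of Rspo1 between cell kinds for narciclasine was 0.040 with total counts and -0.18 to 0.035 without 1 library. The cause was not tested.

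Replicate numbers did not pair the libraries in general: the correlation of same-numbered deviations ran from -0.10 to 0.17. It passed 0.1 only for replicate 2 in narciclasine against TGF-β, at 0.17 in TECs and 0.12 in NRK49F. Libraries with different numbers also passed 0.1, at up to 0.139 in TECs and 0.103 in NRK49F. With the number as a replicate block, the genes called were 9027, 6766 and 8233 in TECs (9139, 6921 and 8349 without it) and 8169, 7167 and 7624 in NRK49F (8216, 7178 and 7645), for TGF-β, narciclasine and narciclasine against control. Members called were 8, 4 and 7 in TECs, as without it, and 6, 4 and 6 in NRK49F against 6, 3 and 7: the call of Wnt5a for narciclasine was gained (adjusted p = 0.0398) and that of Wnt9a for narciclasine against control lost (adjusted p = 0.0678). Genes that differed between cell kinds were 7446 and 5705, against 7464 and 5697.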
